A study of Homo sapiens with 3 samples.

Results

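The SK-Hep-1 control line was described from its own RNA sequencing library, which is 1 of the 3 libraries in the series. SK-Hep-1 is an established human cell line that was taken from ascites of a patient with liver adenocarcinoma, and later work on it has described endothelial and mesenchymal traits. The library, shNC, came from cells made to carry a negative control short hairpin RNA stably by lentiviral infection. The other libraries carry hairpins against the long noncoding RNA LINC01089 and are not compared here. The library was chosen by its label, so no measured value entered the choice. The labels do not say whether the line is a clone or a pool, and they give no uninfected parental cells, so the values are those of a transduced line.

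Levels are given in FPKM, fragments per kilobase of gene length scaled to the depth of the library. This lets genes be compared with each other within the library, as far as the lengths fit. The lengths mostly lay close to the summed exons of all annotated transcripts of a gene, which can exceed its main mRNA. Such a gene then has a lower FPKM for the same reads. The keratin gene KRT8 had more reads than KRT18 (45533 and 25480) but a lower FPKM, over 6881 and 3224 bases. Ranks and close differences between genes depend on this. The library held 10698480 reads, a total worked out from the steps between low values. Whether the authors counted single reads or read pairs (fragments) is not stated in the sources used here. If they counted pairs, each read below stands for a pair. The group is 1 library, so replicate error could not be measured and nothing was tested. The 95% Poisson intervals below therefore cover counting error only. The reads carry no molecular identifiers, so repeated copies of 1 molecule cannot be told apart, and the intervals can be too narrow even for that. A gene was called on at 1 FPKM or more. A protein-coding gene between 1 and 1.1 FPKM rested on a median of 56.5 reads, with a range of 6 to 299 over 158 genes. In bulk RNA, fewer cells of a type and less RNA per cell cannot be told apart.

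Some background helps to read the values. Hepatocytes make the plasma proteins of the blood under the control of factors such as HNF4A and the FOXA family, whereas endothelial cells line vessels and hold together through VE-cadherin and PECAM-1. Mesenchymal cells carry a vimentin cytoskeleton and grip collagen, laminin and fibronectin through integrins at focal adhesions. Secreted ligands and their receptors then set which signals such cells can send and receive.

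Of 16858 protein-coding genes in the table, 10366 (61.5%) were on. Another 4271 had reads but stayed under 1 FPKM, and 2221 (13.2%) were at 0. GENCODE release 29, a human gene annotation, holds 19951 protein-coding genes. Shares of all protein-coding genes in this report therefore mean the 16858 listed ones. Most of the genes that were on lay in the lower part of the range, with 6450 genes from 1 to 10 FPKM, 3579 from 10 to 100, and 313 from 100 to 1000. The 24 genes at 1000 FPKM or more took 28.3% of the summed protein-coding FPKM but 10.02% of the protein-coding reads, which are not scaled to length. Of these, 13 were nuclear and 11 mitochondrially encoded. The median over genes that were on was 6.75 FPKM, on a median of 380 reads. The genes nearest to the threshold show how little separates both sides. NKX3-2, PCDHGA2 and SNX13 were just inside, each at 1.00 FPKM, on 30, 72 and 176 reads. PIERCE2 and ANAPC4 were just outside, each at 0.998 FPKM, on 9 and 80 reads.

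**Figure D1:**
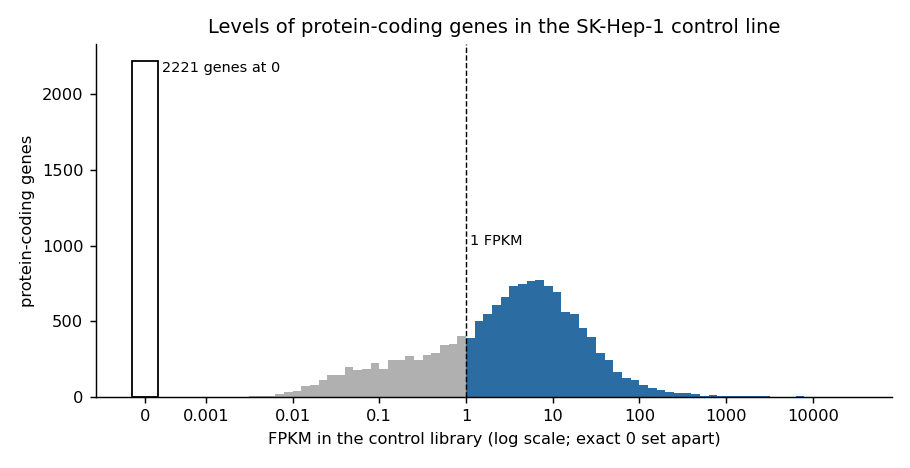
Number of protein-coding genes (vertical axis) by FPKM in the control library (horizontal axis, log scale), with genes at exactly 0 as an open bar at the left. Blue bars hold the 10366 genes at 1 FPKM or more, grey bars the 4271 genes with reads under 1 FPKM, and the open bar the 2221 genes at 0.

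The most abundant nuclear mRNAs stood far above the median. FTL, the ferritin light chain that helps to store iron (chromosome 19, 48965301 to 48966878 on GRCh38), was the most abundant at 18640 FPKM (18552 to 18728). It alone took 1.62% of all reads. TMSB10, an actin-binding thymosin, followed at 4622 FPKM. GAPDH, a glycolytic enzyme, stood at 2181 FPKM, and FTH1, the ferritin heavy chain, at 1948 FPKM. FTH1 shares 62.4% of its exonic bases with BEST1, which was listed at 346 FPKM, so reads of this pair could be divided between them. MT2A, a metallothionein that binds zinc and copper, had 1582 FPKM. The first 5 nuclear mRNAs were thus 2 ferritin chains, a metallothionein, a thymosin and a glycolytic enzyme.

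Cytoskeletal and translation genes came next. The actins ACTG1 and ACTB had 1232 and 1140 FPKM, and the translation elongation factor EEF1A1 lay between them at 1190 FPKM. S100A6, a calcium-binding protein, had 1150 FPKM and its relative S100A11 had 791 FPKM. VIM (chromosome 10, 17228259 to 17237593), the vimentin gene, ranked 15th among nuclear genes at 922 FPKM (914 to 930), on 51073 reads. HSP90AB1, a cytosolic chaperone, had 872 FPKM and the tubulin TUBB 829 FPKM. HMGA1, a chromatin protein that is high in many tumours, had 825 FPKM, and ENO1, another glycolytic enzyme, 791 FPKM. SRGN, the core protein of a secretory granule proteoglycan, reached 794 FPKM. KRT18 (chromosome 12, 52948871 to 52952901), a simple epithelial keratin, had 739 FPKM (730 to 748), close below vimentin. GDF15 (chromosome 19, 18374731 to 18389176), a stress-induced secreted factor of the TGF-beta family, had 687 FPKM (676 to 698), and the elongation factor EEF2 673 FPKM.

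Ribosomal protein genes filled much of the same range. They were 11 of the 30 most abundant nuclear mRNAs and 40 of the first 100. The highest were RPS2 at 1180 FPKM, RPS12 at 1112, RPL13A at 1099.95 and RPL8 at 1073 FPKM. Over 86 listed genes of the family, 81 were on, and the median was 245 FPKM. Processed pseudogenes with near-identical sequence could share their reads, and RPS2P5, a pseudogene of RPS2, was itself listed at 876 FPKM. The 50 most abundant nuclear mRNAs held 26.0% of the nuclear protein-coding FPKM, and the first 1000 held 64.7%. Ranked by reads, the first 50 held 16.1% of the nuclear protein-coding reads. The median length was 2198.5 bases for the first 50 by FPKM and 4998 for all nuclear protein-coding genes that were on. FPKM divides reads by this length, so the ranking itself favours short genes. Of the first 50 by FPKM, 28 were also among the first 50 by reads.

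**Figure D2:**
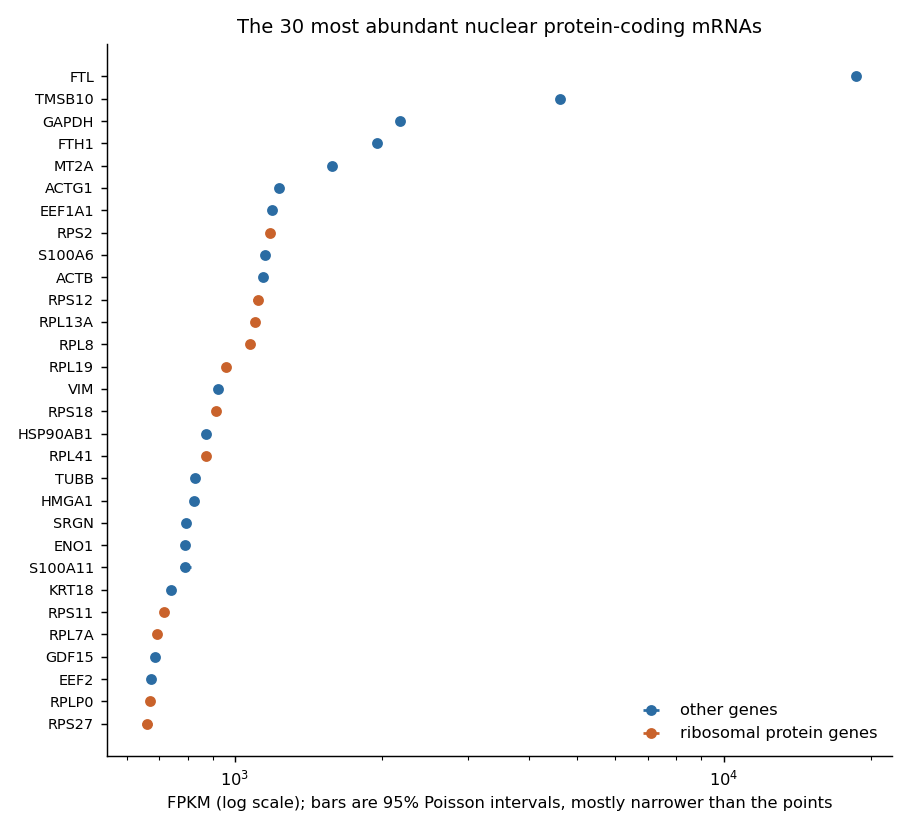
FPKM (horizontal axis, log scale) of the 30 most abundant nuclear protein-coding mRNAs, with ribosomal protein genes in orange and others in blue. FTL at 18640 FPKM stands far to the right of TMSB10 at 4622, and the other 28 genes lie between 662 and 2181 FPKM.

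The mitochondrial genome was well represented. Its 13 protein-coding genes took 4.16% of all reads. MT-CO1, a core subunit of cytochrome c oxidase, had 9496 FPKM, MT-CO3 had 7726 FPKM and MT-CO2 had 6692 FPKM. MT-ATP6, of the ATP synthase, had 3378 FPKM, and MT-ND5, of complex I, had 987 FPKM. MT-ATP8, which overlaps MT-ATP6, was the lowest of the 13 at 78.6 FPKM. The subunits of cytochrome c oxidase were thus the highest.

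Markers of cell lineages were examined from lists of known markers, whose members count as on against the 61.5% of all protein-coding genes. The line is labelled as liver, yet most hepatocyte genes were under 1 FPKM or at 0. Of 37 listed hepatocyte genes 5 were on, 14 had reads under 1 FPKM and 18 were at 0. The count moved with the threshold, to 8 at 0.5 FPKM and 11 at 1 TPM (the FPKM rescaled to a fixed sum), and to 1 at 5 FPKM. The plasma protein genes APOA1, APOA2, TTR, FGB, FGG, AHSG, AMBP, RBP4 and HP had no read, and the count of 0 allows up to 0.197 FPKM for APOA1, 0.117 for TTR and 0.104 for FGB (3 reads each). SERPINA1 (chromosome 14, 94376747 to 94390693), which encodes alpha-1 antitrypsin, was the one plasma protein gene on, at 4.69 FPKM (4.12 to 5.31). HNF4A, a master factor of hepatocytes, rested on 1 read. FOXA2 was on at 1.22 FPKM, and FOXA1 and FOXA3 had 0.699 and 0.659 FPKM. NR1I3, a xenobiotic receptor, had 3.59 FPKM, TDO2, which degrades tryptophan, 2.73 FPKM, and ASS1, of the urea cycle, 5.18 FPKM. Another 12 markers, ALB and APOB among them, were not analysed here.

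Fetal liver markers were low as well. Of 7 listed genes PEG10 alone was on, at 7.66 FPKM. AFP, the alpha-fetoprotein gene, had 0.488 FPKM on 17 reads. GPC3, DLK1, LIN28B and IGF2 had no read.

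Markers shared by bile duct and liver progenitor cells were on in 8 of 13 cases, the same 61.5% as over all protein-coding genes. KRT19, a keratin of duct epithelium, had 290 FPKM, and KRT7, another one, 13.2 FPKM. SPP1, the osteopontin gene, had 64.9 FPKM, and the duct factor SOX9 had 19.4 FPKM. CD24, a surface glycoprotein, had 3.77 FPKM. Other surface proteins of duct epithelium were at or near 0. EPCAM rested on 1 read, and PROM1 and CFTR had none. Keratins and the SOX factor of ducts were therefore present without these surface proteins.

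The endothelial list divided in a similar way. Of 29 listed genes 11 were on, 14 had reads under 1 FPKM and 4 were at 0. PROCR, the endothelial protein C receptor, had 96.2 FPKM and EPAS1, the gene of HIF-2 alpha, 52.3 FPKM. ENG (chromosome 9, 127815012 to 127854756), the endoglin co-receptor of TGF-beta, had 37.5 FPKM (35.7 to 39.4), on 1578 reads. ETS1, a transcription factor, had 30.7 FPKM, the secreted factor EGFL7 26.5 FPKM, and S1PR1, a sphingosine-1-phosphate receptor, 11.9 FPKM. THBD, which encodes thrombomodulin, had 4.55 FPKM. Among the endothelial factors, SOX18 had 2.46 FPKM and FLI1 1.42 FPKM.

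The genes that define endothelium most narrowly were at or near 0. PECAM1 and CDH5 (VE-cadherin) rested on 1 read each, VWF on 4 reads, TEK on 3, CD34 on 9 and FLT4 on 9. ERG, FLT1, SOX7 and LYL1 had no read, which for ERG allows up to 0.0370 FPKM. NOS3, the endothelial nitric oxide synthase, was just under the threshold at 0.946 FPKM, and TIE1 had 0.293 FPKM. In all, 7 of 21 listed surface and secreted genes of endothelium were on, ENG, PROCR, EGFL7, S1PR1 and THBD among them. The junction genes PECAM1 and CDH5 had 1 read each, but not every adhesion gene of the list is named here. Of the liver sinusoidal markers, GATA4 alone was on, 1 of 9, with 5.95 FPKM. STAB1 had 0.362 FPKM and STAB2 0.131 FPKM.

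Markers of stellate cells, pericytes and fibroblasts were mostly low, with 7 of 23 on and none at 10 FPKM. COL3A1, a fibrillar collagen, had 8.04 FPKM, and THY1, a surface glycoprotein, 6.85 FPKM. ACTA2, the smooth muscle actin, had 4.46 FPKM, TAGLN 4.10 FPKM, and PDGFRB 2.03 FPKM. PDGFRA, FAP and TCF21 rested on 1 read each, and HGF, POSTN and CYGB had none. Of 7 mesothelial markers 3 were on. MSLN, the mesothelin gene, had 63.6 FPKM, BNC1 12.3 FPKM and CALB2 3.74 FPKM, whereas WT1 rested on 4 reads.

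Other cell types left little trace. Of 11 blood cell markers CD14 alone was on, at 1.87 FPKM on 33 reads, and PTPRC (CD45) rested on 1 read. Of 11 neural and muscle markers SYP alone was on, at 1.33 FPKM, and TUBB3 lay just outside at 0.992 FPKM.

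**Figure D3:**
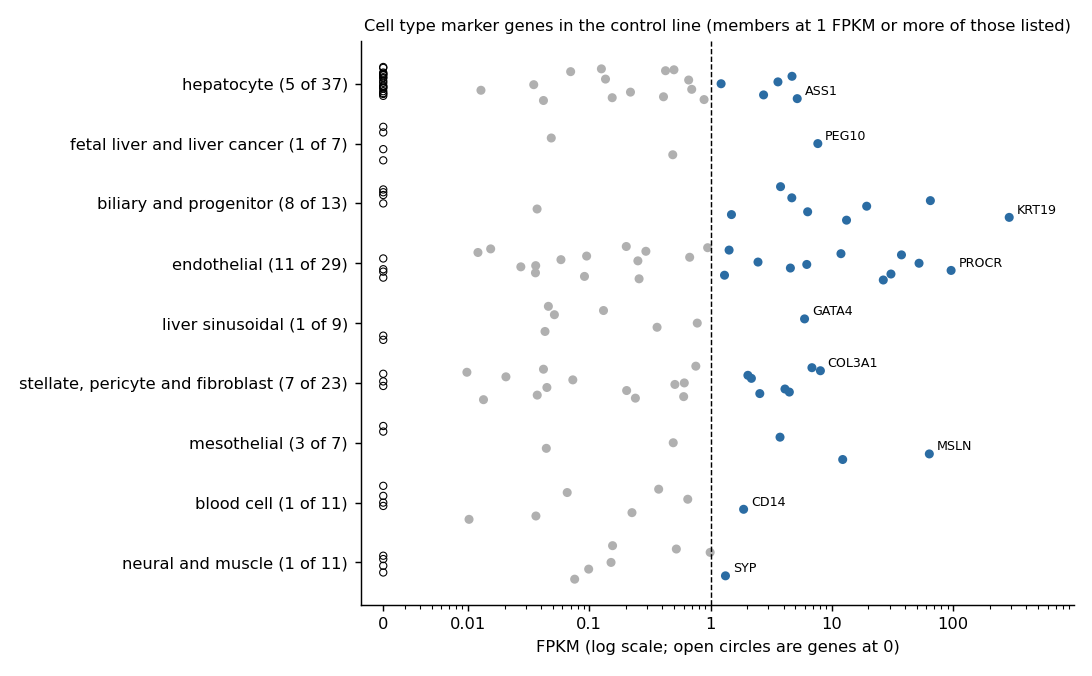
FPKM (horizontal axis, log scale) of each listed marker gene by cell type (rows), with the number at 1 FPKM or more of those listed in brackets and the highest gene of each row named. Blue points are on, grey points have reads under 1 FPKM, and open circles are genes at 0: the hepatocyte row has 18 open circles, and the endothelial row spans from 0 to PROCR at 96.2 FPKM.

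Of 11 factors tied to the mesenchymal state 7 were on (63.6%), close to the 61.5% of all protein-coding genes, and none reached 10 FPKM. TWIST1 was the highest at 8.14 FPKM, FOXC2 had 3.32 FPKM and SNAI2 (Slug) 3.14 FPKM. FOXC1, ZEB1, TWIST2 and ZEB2 had 2.93, 2.11, 1.3 and 1.27 FPKM. SNAI1 stayed under the threshold at 0.658 FPKM, on 12 reads, and PRRX1 had no read.

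The cytoskeleton held vimentin and simple epithelial keratins at once. KRT8, the partner of KRT18, had 619 FPKM beside 739 FPKM for KRT18 and 922 FPKM for VIM. Of 23 listed keratins 9 were on. KRT81, a hair keratin with close relatives in the genome, had 80.0 FPKM and KRT80 27.3 FPKM. The keratins of stratified epithelium were off: KRT5, KRT6A and KRT16 had no read, KRT14 rested on 3 reads and KRT17 on 1. Among other filaments LMNA, of the nuclear lamina, had 215 FPKM and INA, a neurofilament relative, 23.3 FPKM, whereas NES rested on 9 reads and NEFL and NEFH had none.

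Adhesion genes were considered by their place at the cell surface. Counts for these and the later families are to be read against the 61.5% of all protein-coding genes. Cadherins join cells through calcium-dependent contacts, and only 5 of 20 were on. CDH2 (N-cadherin) had 6.01 FPKM, CDH24 5.76 FPKM, CDH13 (T-cadherin) 5.15 FPKM, CDH4 2.18 FPKM and CDH18 1.69 FPKM. CDH1 (E-cadherin) rested on 3 reads, at 0.0459 FPKM (0.00948 to 0.134), and CDH3 (P-cadherin) on 9 reads. CDH1 and CDH5, the cadherins that mark epithelium and endothelium, were thus both near 0. The catenins that tie cadherins to actin were higher than the cadherins. CTNNA1 had 48.9 FPKM, CTNND1 21.9 FPKM and CTNNB1 21.5 FPKM, and 10 of 12 genes of this list were on.

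Tight junction and desmosome genes were on in 9 of 28 cases. CLDN1, a sealing claudin, had 19.2 FPKM, the scaffold TJP1 10.8 FPKM, and DSG2, a desmosomal cadherin, 6.20 FPKM. CLDN7, CLDN15, CLDN12 and OCLN had 4.95, 4.78, 3.39 and 2.75 FPKM. JAM2 and CLDN5, the claudin of endothelium, rested on 1 read each.

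Integrins are pairs of an alpha and a beta chain that bind the matrix. Of 26 genes 12 were on. ITGA3, a laminin-binding chain, was the highest at 113 FPKM, and its partner ITGB1 had 99.6 FPKM. ITGA6 and ITGB4, which pair to bind laminin, had 53.8 and 34.0 FPKM. The fibronectin receptor chain ITGA5 had 23.1 FPKM, the vitronectin receptor chains ITGB5 and ITGAV 19.6 and 7.58 FPKM. ITGA4, ITGA2 and ITGB3 had 5.53, 5.10 and 2.64 FPKM. The leukocyte chain ITGAL and the epithelial chain ITGB6 had no read. The 4 highest integrin genes all encode chains of laminin receptors.

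Laminins themselves were on in 8 of 12 cases (66.7%, against 61.5% of all protein-coding genes). LAMC1 had 126 FPKM and LAMB3 88.5 FPKM. LAMB1 and LAMB2 had 37.6 and 30.3 FPKM, and LAMA5 was the highest alpha chain at 14.8 FPKM. LAMA3, an alpha chain that joins LAMB3 in an epithelial laminin, was just inside the threshold at 1.04 FPKM. LAMA4, a vascular alpha chain, rested on 1 read.

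Focal adhesion genes formed the list with the most members on among the adhesion families, 22 of 24. CAVIN1 and CAV1, which build caveolae, had 421 and 248 FPKM. The actin crosslinkers FLNA and ACTN4 had 330 and 213 FPKM, and LASP1 had 156 FPKM. ACTN1, ZYX and FLNC had 80.3, 70.6 and 67.2 FPKM. TLN1, which activates integrins, had 58.2 FPKM, while FERMT3, its blood cell helper, had 0.549 FPKM and TNS1 rested on 8 reads.

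Other adhesion receptors were on in 20 of 35 cases (57.1%, against 61.5% of all protein-coding genes). BSG (basigin) had 126 FPKM and CD44, a hyaluronan receptor, 115 FPKM. L1CAM, a neural cell adhesion molecule that some tumours express, had 76.0 FPKM. DAG1 (dystroglycan), NECTIN2, MPZL1, ALCAM and CD99 had 42.4, 36.2, 31.1, 30.7 and 30.6 FPKM. ICAM1 had 14.99 FPKM, and VCAM1 and NCAM1 had no read. Among tetraspanins, which organise membrane proteins, 18 of 25 were on, led by CD63 at 206 FPKM, CD151 at 86.9 FPKM and CD9 at 63.1 FPKM. Of the heparan sulfate carriers SDC4 and SDC1 had 80.7 and 60.7 FPKM and GPC1 21.6 FPKM, while SDC2, a mesenchymal syndecan, rested on 2 reads.

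Of 45 non-collagen genes of the secreted matrix, 4 reached 100 FPKM, and no collagen did. The median was 1.91 FPKM for this non-collagen list and 0.507 for the collagens, against 2.41 over all protein-coding genes. SRGN, described above, was the highest of the non-collagen list. Of the matricellular genes, CCN1 had 622 FPKM, SPARC 312 FPKM, THBS1 214 FPKM and CCN2 50.6 FPKM. The basement membrane proteoglycans AGRN and HSPG2 had 42.4 and 36.8 FPKM, and CRIM1 had 57.8 FPKM. FN1, the fibronectin gene, had 20.2 FPKM on 3716 reads. In all 25 of 45 members of this list were on, whereas TNC rested on 17 reads, VCAN on 5, and POSTN, ACAN and MGP had none.

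Collagens were on in 13 of 39 cases, below the share of all genes. COL6A2 had 28.4 FPKM, COL18A1 21.3 FPKM, COL5A2 20.6 FPKM and COL6A1 10.6 FPKM. The basement membrane chains COL4A2 and COL4A1 had 10.3 and 5.90 FPKM. Of type I collagen, the main product of fibroblasts, COL1A1 was under the threshold at 0.600 FPKM on 63 reads, and COL1A2 had 0.0419 FPKM on 5 reads. The enzymes that fold and crosslink collagen were on in 12 of 13 cases all the same. P4HB had 184 FPKM, the transglutaminase TGM2 121 FPKM, LOXL2 63.2 FPKM and LOX 21.4 FPKM.

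Secreted proteases were on in 18 of 31 cases (58.1%, against 61.5% of all protein-coding genes). PLAU, the urokinase gene, had 105 FPKM, and its receptor PLAUR had 31.5 FPKM. PLAU shares 31.1% of its exonic bases with a neighbouring gene. MMP14, a membrane metalloproteinase, had 65.8 FPKM and ADAMTS1 53.3 FPKM. PLAT, tissue plasminogen activator, had 13.4 FPKM, MMP15 9.81 FPKM and MMP9 7.04 FPKM. MMP1 and MMP3 were just inside at 1.38 and 1.16 FPKM, MMP2, a mesenchymal collagenase of type IV collagen, was outside at 0.318 FPKM, and MMP7 and MMP13 had no read. Inhibitors of proteases were also on. TIMP1, a metalloproteinase inhibitor, had 242 FPKM, its relative TIMP2 61.6 FPKM and SERPINE2, a serine protease inhibitor, 68.4 FPKM, and 15 of 23 inhibitor genes were on.

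Growth factor genes were on in 40 of 88 cases, led by GDF15. TGFB1 had 76.6 FPKM and TGFB2 18.6 FPKM, but TGFB3 rested on 6 reads. The vasoactive peptide genes ADM and EDN1 had 50.3 and 7.99 FPKM. In the vascular group VEGFB had 23.7 FPKM, VEGFC 11.01 FPKM and VEGFA 3.89 FPKM. FGF2 was the highest of 17 listed FGF genes at 23.2 FPKM, and 4 of these were on. Of the EGF family NRG1 had 18.4 FPKM, EREG 14.2 FPKM and HBEGF 7.91 FPKM, whereas EGF had no read. MDK (midkine), GAS6 and BDNF had 26.2, 18.3 and 13.1 FPKM. HGF, IGF1, IGF2 and PTN had no read. In the group that holds the insulin-like, hepatocyte and neural factors, 8 of 18 genes were on.

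Cytokines and chemokines were on in a minority, 16 of 43 and 9 of 26. CCL5, a T cell and monocyte chemokine, was the highest at 132 FPKM (127 to 138), on 2123 reads. TNFSF9 (4-1BB ligand) had 50.9 FPKM and IL6 48.8 FPKM. IL24, IL18, LIF and CSF1 had 24.5, 23.4, 16.1 and 11.7 FPKM. The neutrophil chemokines CXCL1, CXCL8 and CXCL2 had 23.1, 16.3 and 7.62 FPKM. TNF, CSF2, IL33, CXCL9 and CXCL10 had no read, and CXCL12 rested on 7 reads. Members of 1 chemokine family thus ranged from CCL5 at 132 FPKM to 10 genes at 0.

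Secreted binding proteins and antagonists were on in 18 of 27 cases (66.7%). DKK1, an inhibitor of Wnt signalling, had 159 FPKM. The insulin-like growth factor binding proteins IGFBP4 and IGFBP3 had 132 and 111 FPKM, IGFBP1 59.2 FPKM, IGFBP7 50.5 FPKM and IGFBP6 40.1 FPKM, while IGFBP5 rested on 2 reads. FSTL1 and FSTL3, which are follistatin relatives, had 41.7 and 31.6 FPKM. Of 17 Wnt ligands 4 were on: WNT5B had 34.6 FPKM, WNT7B 9.84 FPKM, WNT3 2.19 FPKM and WNT10B 1.62 FPKM. Guidance ligands were on in 21 of 34 cases (61.8%), close to the 61.5% of all protein-coding genes. NTN4 at 28.8 FPKM and SEMA3C at 20.4 FPKM led them.

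Complement and coagulation genes, many of them liver products, were on in 9 of 25 cases. The membrane protectors CD59, CD55 and CD46 had 17.6, 16.3 and 8.84 FPKM. F3, tissue factor, had 8.49 FPKM and CFD 12.8 FPKM. C3 was just outside at 0.875 FPKM, F2 (prothrombin) rested on 1 read, and F5, F7 and CFB had none.

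**Figure D4:**
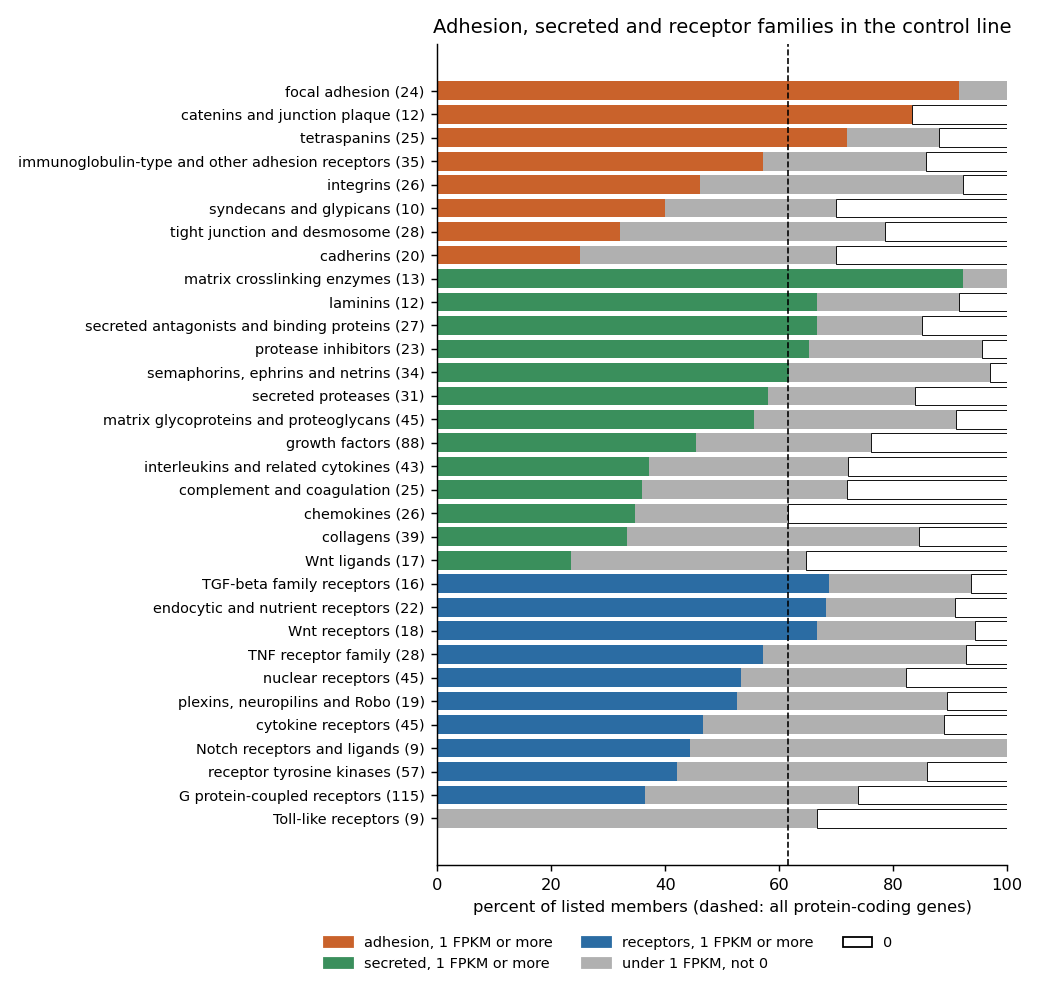
Percent of the listed members of each family (rows, number listed in brackets) that were at 1 FPKM or more (coloured), had reads under 1 FPKM (grey) or were at 0 (open), for adhesion (orange), secreted (green) and receptor (blue) families. The dashed line marks the 61.5% of all protein-coding genes: focal adhesion genes (22 of 24) and matrix crosslinking enzymes (12 of 13) lie to the right of it, chemokines (9 of 26) and G protein-coupled receptors (42 of 115) to the left.

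Receptor tyrosine kinases, which turn growth factor binding into phosphorylation, were on in 24 of 57 cases. AXL, the receptor of GAS6, was the highest at 134 FPKM (131 to 137), followed by EPHA2, an ephrin receptor, at 113 FPKM. MET, the HGF receptor, had 33.1 FPKM. EPHB4, FGFR4, DDR1, ERBB2 and EPHA1 had 15.6, 13.8, 13.4, 13.2 and 10.2 FPKM. ERBB3 and EGFR had 8.74 and 8.25 FPKM, and FGFR1 had 6.33 FPKM. FGFR2, NTRK2, ROS1 and the VEGF receptor FLT1 had no read. Of the receptors of the TAM family AXL was far above MERTK and TYRO3, at 3.84 and 3.20 FPKM.

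Receptors of the TGF-beta family were on in 11 of 16 cases. Next to ENG, TGFBR2 had 16.9 FPKM and TGFBR1 5.82 FPKM, and the type I receptors ACVR1B and ACVR1 had 6.77 and 6.18 FPKM. BMPR2 had 5.11 FPKM. ACVRL1, the endothelial partner of endoglin, stayed under the threshold at 0.519 FPKM.

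Cytokine receptors were on in 21 of 45 cases. OSMR, of the oncostatin M receptor, had 21.6 FPKM, IFNGR2 20.4 FPKM, and IL6ST, the shared gp130 chain, 12.8 FPKM. IL13RA1, CSF2RA and EPOR had 11.9, 9.35 and 8.32 FPKM. IL6R and LIFR were lower, at 2.87 and 1.76 FPKM. The TNF receptor family was on in 16 of 28 cases (57.1%, against 61.5% of all protein-coding genes). TNFRSF12A (the TWEAK receptor) led at 111 FPKM, and TNFRSF1A had 89.5 FPKM. LTBR and the death receptor TNFRSF10B had 39.6 and 36.0 FPKM, and its decoy relative TNFRSF10D had 30.2 FPKM. CD40 had 11.1 FPKM and FAS 3.38 FPKM. None of 9 Toll-like receptors was on, and TLR6 was the highest at 0.511 FPKM.

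Receptors of developmental pathways were read next. Of 18 Wnt receptor genes 12 were on (66.7%, against 61.5% of all protein-coding genes). FZD2 stood at 126 FPKM, far above LGR4 at 11.1 FPKM, KREMEN2 at 10.3 FPKM and FZD7 at 6.81 FPKM. Of the Notch genes NOTCH2 had 18.4 FPKM and NOTCH1 3.86 FPKM, and the ligands DLL3, JAG2 and JAG1 had 4.28, 1.42 and 0.985 FPKM. NOTCH4 and DLL4, which are used in vessels, rested on 1 and 2 reads. In the Hedgehog list SMO had 8.998 FPKM, SUFU 4.38 FPKM and GLI2 2.74 FPKM, and SHH and IHH had no read. Among receptors of semaphorins PLXNB2 had 44.1 FPKM, PLXNA1 12.2 FPKM and NRP1 8.29 FPKM.

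G protein-coupled receptors were on in 42 of 115 cases, with 30 at 0. OXTR, the oxytocin receptor, was the highest at 48.6 FPKM (46.7 to 50.6), on 2348 reads. ADORA2B, an adenosine receptor, had 24.0 FPKM and ADGRE5 (CD97) 19.1 FPKM. The lysophosphatidic acid receptors LPAR1 and LPAR3 had 15.4 and 10.997 FPKM, and the thrombin receptor F2R had 12.5 FPKM. P2RY11 was listed at 13.9 FPKM and CXCR5 at 7.81 FPKM, but 59.2% and 88.6% of their exonic bases lie in other listed genes, so both values are uncertain. Of 15 listed chemokine receptors 3 were on, CXCR5, CCR10 and ACKR4, while CXCR4 rested on 6 reads and ACKR3 had none.

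Uptake receptors were on in 15 of 22 cases. The highest value in this list, 206 FPKM, was that of the tetraspanin CD63, which is counted in both lists. LRP10, the mannose-6-phosphate receptor M6PR and the transferrin receptor TFRC had 39.6, 38.8 and 37.8 FPKM. CD320, which takes up vitamin B12, had 24.3 FPKM. SCARB1, OLR1 and LRP1, which bind lipoproteins, had 16.3, 15.3 and 10.97 FPKM. TFR2, the transferrin receptor of hepatocytes, had no read.

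Nuclear receptors, which bind hormones and lipids inside the cell, were on in 24 of 45 cases. NR2F6 and NR2F2 (COUP-TFII) had 35.4 and 26.1 FPKM. NR1H2 (LXR beta), ESRRA and RXRB had 24.7, 23.3 and 23.2 FPKM. RARG had 16.7 FPKM and PPARD 14.9 FPKM. Of the steroid receptors NR3C1, the glucocorticoid receptor, had 8.10 FPKM, whereas ESR1 rested on 4 reads and PGR and NR3C2 had none. NR2F2, a factor of veins and mesenchyme, was thus far above HNF4A, a hepatocyte factor of the same superfamily. NR1I3, another nuclear receptor of the hepatocyte list, was on at 3.59 FPKM.

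Known ligands were then read beside a receptor of each in the same library, in 44 textbook pairs chosen after the values were seen. Both partners were on in 22 pairs. GAS6 at 18.3 FPKM stood beside AXL at 134 FPKM, WNT5B at 34.6 FPKM beside FZD2 at 126 FPKM, and PLAU at 105 FPKM beside PLAUR at 31.5 FPKM. TGFB1 and TGFBR2 had 76.6 and 16.9 FPKM. In 19 pairs the ligand alone was on. CCL5 was at 132 FPKM while its receptor CCR1 rested on 8 reads. CXCL8 and CXCL1 were at 16.3 and 23.1 FPKM, and their receptor CXCR2 had no read. EDN1 was at 7.99 FPKM with no read for EDNRA or EDNRB, and ADM at 50.3 FPKM with CALCRL at 0.0639 FPKM. BDNF was at 13.1 FPKM with no read for NTRK2. The reverse was seen in 1 pair, MET at 33.1 FPKM with no read for HGF. These are mRNA levels in 1 library, and no protein or signal was measured.

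HOX genes mark the position of a cell's origin along the body axis, and their 4 clusters differed in this library. In the B cluster all 9 listed genes were on. HOXB7 was the highest at 28.5 FPKM, HOXB9 had 16.5 FPKM, HOXB6 14.4 FPKM, HOXB5 7.05 FPKM and HOXB13 6.58 FPKM. In the C cluster 4 of 9 were on, with HOXC10 at 10.999 FPKM and HOXC13 at 8.88 FPKM. In the A cluster 4 of 11 were on, HOXA11, HOXA7, HOXA10 and HOXA3, all between 1.15 and 2.63 FPKM. In the D cluster none of 9 was on: HOXD13 rested on 5 reads and the other 8 had none.

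**Figure D5:**
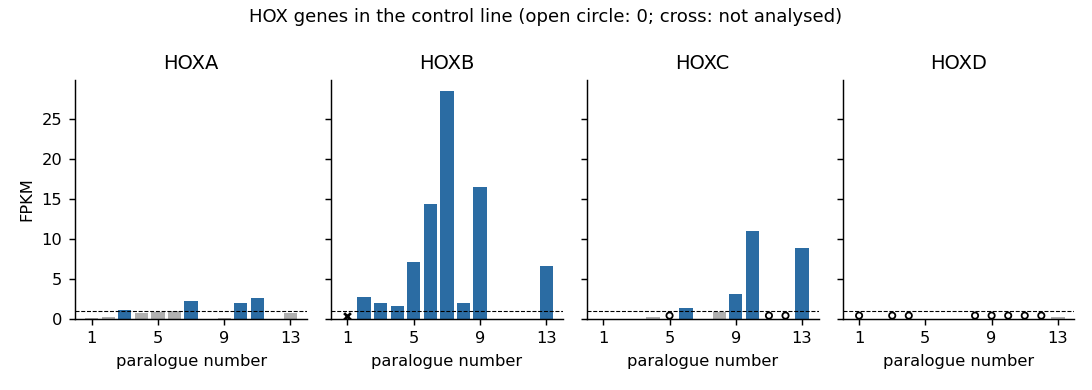
FPKM (vertical axis) of each HOX gene by its paralogue number (horizontal axis) in the A, B, C and D clusters, with the dashed line at 1 FPKM, grey bars under it, open circles for genes at 0 and a cross for a gene not analysed. The tallest bar is HOXB7 at 28.5 FPKM, and the HOXD panel holds 8 open circles.

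Among GATA, SOX and TBX factors 10 of 31 were on. SOX12 and SOX9 had 19.4 FPKM each and SOX13 8.73 FPKM. GATA3, GATA4 and GATA2 had 6.72, 5.95 and 5.91 FPKM, while GATA6 stayed under the threshold at 0.738 FPKM. TBX3 and TBX2 had 2.52 and 2.15 FPKM. SOX2, SOX10 and SOX11 had no read. The 3 GATA factors GATA2, GATA3 and GATA4, which serve different lineages, were therefore on at nearly equal levels.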

How the data were processed

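RNA was sequenced from 1 library per group, and only the column of the control library shNC was used for results. A strand-specific library was built from enriched mRNA after a Trizol extraction, per the labels' protocols. The authors deposited FPKM values for 22464 Ensembl identifiers. Per the submitters' processing notes, FastQC, StringTie and build GRCh38 were used, while the sources used here name no aligner, annotation release or strand setting.

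Symbols were found for 20952 identifiers. Gene types and coordinates came from GENCODE release 29, which holds 22444 of them. Whole reads were recovered from the shNC column alone: the inverse of FPKM times exon length, taken at its commonest value, gave the total, since 1281 genes had exactly 1 read, and the length nearest to GENCODE's that made reads whole was taken for each gene. It was found for 100% of genes above 0, equalled GENCODE's for 59.7% and lay within 5% of it for 93.7%. Reads counted as whole within a relative tolerance of 1e-09, plus the rounding of the last deposited decimal. As the length was chosen for each gene to meet this, the share is no independent check. Listed genes hold 95.4% of the total. A count of 0 allows up to 0.280 RPM (3 reads). The step was tested on simulated data. Because the total rests on GENCODE lengths, the match of lengths is partly built in.

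A gene was on at 1 FPKM or more. Intervals are exact Poisson intervals at 95% (SciPy 1.17.1, Python 3.11.15). Named genes were the 30 most abundant nuclear protein-coding genes, the 6 markers given for the line (VIM, FTL, KRT18, ENG, SERPINA1 and GDF15), up to 3 genes on either side of the threshold, and up to 8 leading members of each list, with members at or under 1 FPKM that define a cell type. Further members were named after their values were seen. The members and the 50 lists were chosen with earlier results of these data known. Of 1435 symbols in the lists 148 were not analysed here. Some members of the lists are counted but not reported here by name. No test was run, since the group has 1 library. Alternatives changed the threshold, the unit, a minimum of reads, the gene types and the ranking.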

Additional observations from a re-analysis of the deposited data

How the results depend on the processing

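The number of protein-coding genes called on was 10366 at 1 FPKM, 11467 at 0.5 FPKM, 8923 at 2 FPKM and 6192 at 5 FPKM. After rescaling to TPM, which multiplies each FPKM by 3.15, it was 12019 at 1 TPM. With at least 10 reads as a further condition it was 10358, and with all gene types it was 11361. Leaving out genes with over 50% of their exonic bases in another listed gene, an alternative chosen after seeing the data, gave 10261. Over all lists, 584 of 1287 listed genes were on (45.4%), and 327 at 5 FPKM. Of the 50 lists, 31 changed their count by more than 1.5 times at 5 FPKM, 12 at 1 TPM, 8 at 0.5 FPKM, 3 at 2 FPKM, and none with at least 10 reads or without overlapping genes.

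The 50 most abundant mRNAs held 26.0% of the nuclear protein-coding FPKM. Ranked by reads, which are not per length, 50 genes held 16.1% of the nuclear protein-coding reads and 28 genes were in both rankings. With mitochondrially encoded genes the share was 35.2%, and without ribosomal protein genes 25.9%. No paired analysis was possible because each group has 1 library and no groups were compared. With 1 library no replicate could be left out. Depth limits the genes near 0: a call of 0 reads is a limit, not an absence.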

Other observations

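Several gene groups lie outside the families above. On the short arm of chromosome 9, from 20 to 25 Mb on GRCh38, 10 protein-coding genes were listed and 6 of them had no read. MTAP, an enzyme of methionine salvage that most tissues express, had no read, which allows up to 0.0192 FPKM (3 reads). The cell cycle inhibitors CDKN2A and CDKN2B beside it had no read, nor had DMRTA1 and ELAVL2, so 5 neighbouring listed genes from 21802543 (MTAP) to 23826337 (ELAVL2) were all at 0. HACD4, closer to the end of the chromosome, also had no read. Between HACD4 and MTAP, KLHL9 was on at 5.30 FPKM with 324 reads, and IFNB1 had 1 read. FOCAD and MLLT3, further out, were on at 2.51 and 1.28 FPKM, with 270 and 111 reads. Over all protein-coding genes 13.2% were at 0. DNA was not measured.

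Cancer-testis antigens were nearly silent, with 1 of 22 listed genes on and 16 at 0. PRAME was the one on, at 27.0 FPKM with 1098 reads. GAGE1 and MAGEA3 followed at 0.837 and 0.527 FPKM, and genes of these families have close relatives that could share reads. Of 44 genes of the ABC family 19 were on. ABCF1, a member that acts in translation and is no transporter, had 48.8 FPKM. The transporters ABCC2 and ABCC1 had 25.7 and 19.4 FPKM, whereas ABCB1, the classical drug efflux pump, rested on 5 reads, and ABCB11, the bile salt pump, had none.

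Of the gene types other than protein-coding, mostly pseudogenes and short noncoding RNAs were listed, with 44 genes of long noncoding RNA types, so the reads of noncoding genes as a whole were not analysed here. The 4338 listed pseudogenes held 0.864% of the reads, and 685 of them were at 1 FPKM or more. RPL39P3 and RPS28P7 had 1080 and 631 FPKM on 1803 and 1418 reads. Of 1157 short noncoding RNA genes 286 were at 1 FPKM or more, on a median of 3 reads. MIR1282 was listed at 1800 FPKM, but all of its 101 bases lie in exons of SERF2, a protein-coding gene.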
